A study of Homo sapiens with 8 samples.

Results

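The NF-kB inflammatory and survival target genes are 34 protein-coding genes, out of 20056 in the RefSeq table, listed as targets of the transcription factor NF-kB. They lie outside the chemokine cluster of CXCL8 on chromosome 4, and the genes of the NF-kB pathway itself are not among them. All 34 matched a RefSeq gene by symbol. The data were 4 lists of peaks from chromatin immunoprecipitation followed by sequencing (ChIP-seq), with an antibody against NKRF, the NF-kB repressing factor. The cells were MDA-MB-231-P3, a highly metastatic subline of a triple-negative breast cancer line, grouped by the labels as control (2 libraries, named si-NC in the file headers) or as treated with siRNA duplexes that target the lncRNA Uc003xsl.1 (si-Uc003xsl.1, 2 libraries). By the series title, this RNA holds NKRF as a decoy and so activates NF-kB, and the peaks address where NKRF was found with and without the siRNA. A member was counted as carrying a peak when a peak summit, the position of highest tag density, lay in the gene body or within 10 kb of either gene end. The peak lists hold no RNA levels, so neither the members' expression nor the level of Uc003xsl.1 is given here.

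NF-kB is a family of dimeric transcription factors that wait in the cytoplasm, bound to inhibitors, until signals such as TNF or IL-1 release them into the nucleus. There they bind kB sites near the genes of cytokines, chemokines, adhesion molecules and proteins that block cell death. NKRF is known as a repressor that binds a negative regulatory element at a few NF-kB targets and holds down their basal transcription, NOS2 being one of the genes described as its targets. In triple-negative breast cancer cells, NF-kB activity is known to maintain the secretion of IL6 and chemokines.

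The lists differed in how they were made. Control replicate 1 and both si-Uc003xsl.1 lists were called with MACS 1.4.2 and hold 7444, 7577 and 4463 peaks from 19335431, 18890698 and 11366267 filtered tags. The list of control replicate 2 came from another program version, MACS 2.1.1.20160309, and another threshold, and holds 902 peaks from 8250475 tags. Differences between the control libraries and differences in their processing cannot be told apart. In control replicate 1 the caller gave every peak a false discovery rate of 100%, and 68.1% of its peaks sat at 6 tags, the smallest count of the list. Whether replicates were separate cultures is not given in the labels.

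After si-Uc003xsl.1, peaks were found at 8 of the 34 genes (23.5%), and adding the control lists left this count at 8, where 40.8% of other protein-coding genes had a peak in at least 1 of the 4 lists. Si-Uc003xsl.1 replicate 2 had summits at 7 members, namely VEGFA, CD83, IL6, IL1B, TRAF1, TRAF2 and CFLAR, and at 17.1% of other protein-coding genes. Si-Uc003xsl.1 replicate 1 had a summit at 1 member, CSF2, and at 23.1% of other genes. The control lists had 0 members with a summit, beside 11.8% of other genes in replicate 1 and 2.58% in replicate 2. The 9 peaks at these 8 genes overlapped no peak of another list. Such overlap, of at least 1 bp, was rare at other genes too, with 3.10% of their peaks in si-Uc003xsl.1 replicate 1 and 4.53% in replicate 2, so 0 of 9 is near the background. The maps of the 8 genes show that the peaks of VEGFA, CD83 and IL6 were close to a gene end, while those of TRAF1, TRAF2, IL1B and CFLAR were deeper inside.

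**Figure D1:**
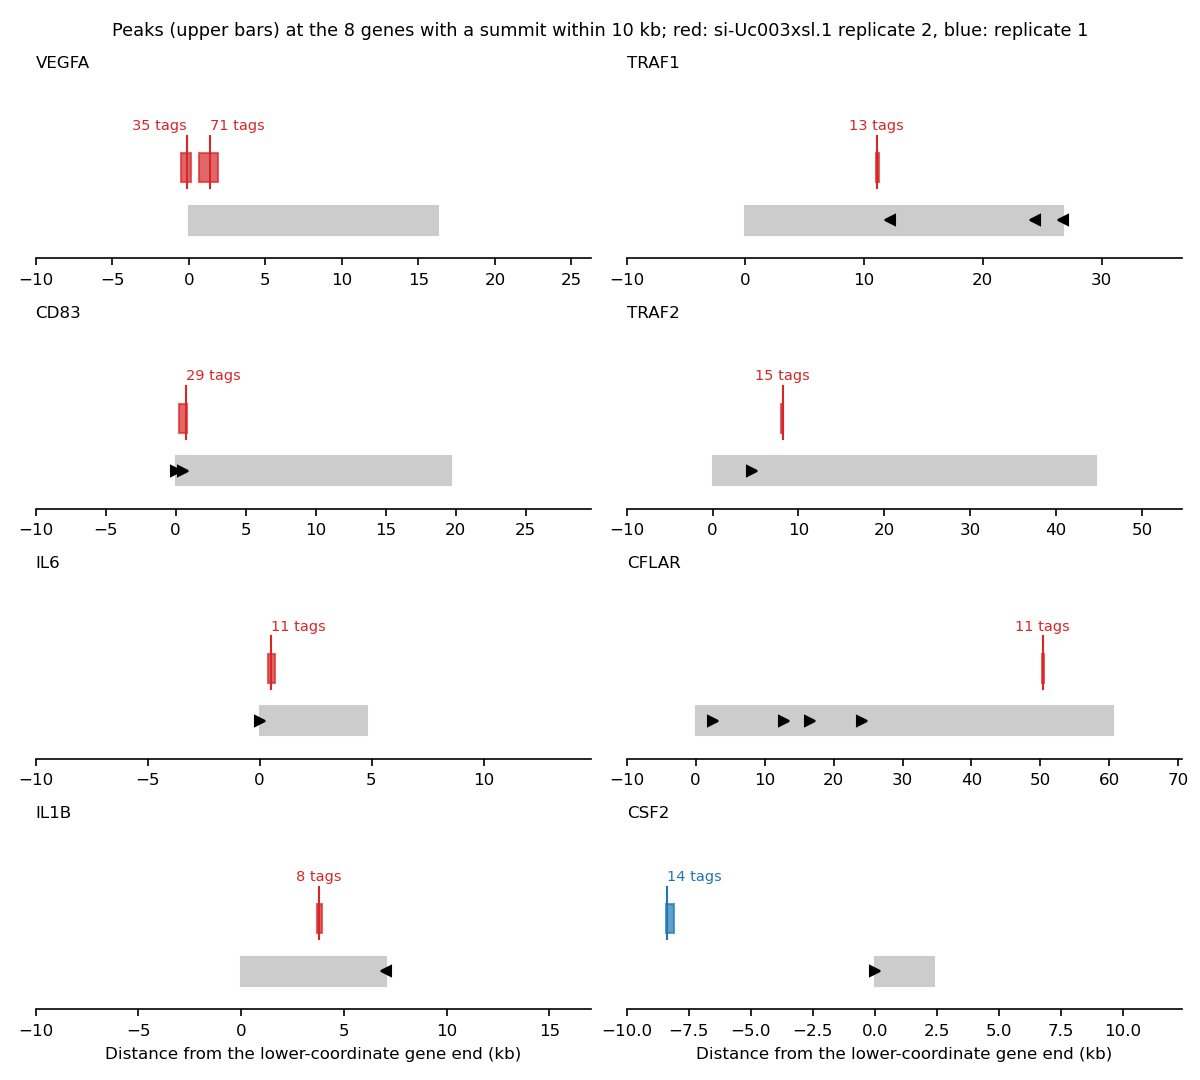
Each panel shows 1 gene as a grey bar, with the distance from its lower-coordinate end in kb, the transcription starts listed by RefSeq as black arrowheads that point along the strand (none is drawn for VEGFA), the called peaks as coloured bars and their summits as vertical lines. VEGFA has 2 peaks, with 35 and 71 tags, at its lower-coordinate end, and the peak at CSF2 is the 1 from si-Uc003xsl.1 replicate 1.

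Promoter sequence was available in the RefSeq table (GRCh38.p14) for 24 of the 34 genes, as 250 bases before each listed transcription start. Not among them were CCL2, CCL5, CSF1, CSF3, IER3, LIF, MMP9, MYC, NOS2 and VEGFA. The kB consensus motif, 10 letters long, was searched on both strands of these 250 bases, and overlapping matches were each counted. It matched at 10 of 24 members (41.7%), against 14.2% of 15819 other protein-coding genes with a listed start. The members were named as NF-kB targets, so this share describes the list and is no finding. A match is a run of letters, not a bound site. The sequences below run 5′ to 3′ along the gene's strand and carry the matches in capitals. The 2 stretches of CD83 lie inside a called peak, from 90 to 61 and from 58 to 29 bases before its second listed start. The window of IL6 is 372 bp from a called peak. Those of CXCL10, VCAM1 and CCL20 are shown as promoters with a match but no summit within 10 kb of the gene in any list.
CD83 first stretch, chr6:14117682-14117711 (+ strand): ttccgctgcccgccGGGGAATCCCCCgggc
CD83 second stretch, chr6:14117714-14117743 (+ strand): gcgcgcaGGGAAGTTCCCgaacgcgcgggc
IL6, chr7:22726950-22727199 (+ strand): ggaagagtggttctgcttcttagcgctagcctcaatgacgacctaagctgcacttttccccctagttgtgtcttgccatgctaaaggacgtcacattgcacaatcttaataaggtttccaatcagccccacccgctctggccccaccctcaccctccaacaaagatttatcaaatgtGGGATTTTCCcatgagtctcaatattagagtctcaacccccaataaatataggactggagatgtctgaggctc
CXCL10, chr4:76023498-76023747 (- strand): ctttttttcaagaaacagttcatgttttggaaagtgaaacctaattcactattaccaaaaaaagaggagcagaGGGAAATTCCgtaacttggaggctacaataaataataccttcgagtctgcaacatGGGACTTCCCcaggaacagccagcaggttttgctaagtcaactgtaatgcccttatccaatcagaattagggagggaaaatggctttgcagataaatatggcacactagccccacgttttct
VCAM1, chr1:100719492-100719741 (+ strand): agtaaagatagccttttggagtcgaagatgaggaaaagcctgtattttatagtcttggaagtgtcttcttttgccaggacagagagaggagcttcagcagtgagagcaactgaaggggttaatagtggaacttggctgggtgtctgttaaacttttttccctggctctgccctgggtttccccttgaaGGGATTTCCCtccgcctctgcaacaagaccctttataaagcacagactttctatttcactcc
CCL20, chr2:227813592-227813841 (+ strand): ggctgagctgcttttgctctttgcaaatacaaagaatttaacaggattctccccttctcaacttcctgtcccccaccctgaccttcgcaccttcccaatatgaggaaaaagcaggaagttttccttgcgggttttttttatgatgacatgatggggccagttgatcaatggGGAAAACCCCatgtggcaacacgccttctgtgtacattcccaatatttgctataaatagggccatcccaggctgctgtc
Of the 10 members with a match, 3 carried a peak in any list (CD83, IL6 and CFLAR), and of the 14 without one, 4 did (CSF2, IL1B, TRAF1 and TRAF2). Of all other protein-coding genes, 40.8% carried a peak in any list, a share that was not split by motif match. A link between match and peak was not tested. The peak of CD83 covered all 250 bases before the second start, which hold 6 matches. The first of these begins 134 bases before the start, and the 5 others overlap within the stretches shown. The match of IL6 begins 73 bases before the start. In CFLAR the match lay in the first listed promoter window, 47.6 kb from the peak. Only the peak at CD83 reached a listed promoter window of any member.

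VEGFA, which encodes the main growth factor of blood vessels, carried the longest peaks of the set, with the most tags. In si-Uc003xsl.1 replicate 2 a peak at 43770868 to 43772149 on chromosome 6 (GRCh38, as in the authors' list) was 1282 bp long and held 71 tags, and its summit lay 1375 bp inside the gene. Its -log10 p of 10.8 placed it at percentile 99.8 of that list. The caller gave it a fold enrichment over input of 5.92 and a false discovery rate of 25%. A second peak at 43769703 to 43770365 spanned the gene end, with its summit 107 bp outside it, a length of 663 bp and 35 tags. In the lists without a peak there, the nearest summit was 188 and 446 kb (controls 1 and 2) and 230 kb (si-Uc003xsl.1 replicate 1) from VEGFA. The signal at VEGFA was therefore called in 1 of the 2 si-Uc003xsl.1 libraries, the one with fewer tags.

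CD83, a surface protein of mature dendritic cells and activated lymphocytes, had a peak at 14117464 to 14118042 on chromosome 6 in the same library. It was 579 bp long and held 29 tags, and the second listed start lay inside it, with the summit 207 bp downstream of that start. The caller's fold was 4.61, its false discovery rate 10.7% and its -log10 p 4.34, at percentile 26.8 of the list, so the peak ranked high by tags (percentile 91.8) and low by p. In control replicate 1 the nearest summit was 29.9 kb from the gene, in a peak of 6 tags. In control replicate 2 it was 186 kb away and in si-Uc003xsl.1 replicate 1 it was 74.2 kb away. MYC, the gene of a transcription factor that drives cell growth and the third of the growth and surface group, had summits no nearer than 219 and 710 kb in the controls and 242 and 212 kb after si-Uc003xsl.1.

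Of the 5 interleukin and IL6 family genes, IL6 and IL1B had a peak in si-Uc003xsl.1 replicate 2. IL6 encodes a cytokine that signals through the IL6ST receptor chain to STAT3. Its peak, at 22727572 to 22727894 on chromosome 7, was 323 bp long with 11 tags, and the summit lay 528 bp downstream of the listed start. Its -log10 p of 4.14 stood at percentile 13.7, the lowest of the 8 peaks at members in that list. In the other lists the nearest summit to IL6 was 153 and 2271 kb (controls 1 and 2) and 77.8 kb (si-Uc003xsl.1 replicate 1) away.

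IL1B encodes interleukin 1 beta, which is cut to its active form by the inflammasome. Its peak at 112833442 to 112833692 on chromosome 2 held 8 tags, and the summit lay 3.23 kb downstream of the listed start. It had the fewest tags and the highest fold of the set, 19.3, at a false discovery rate of 12.5%. The nearest summit lay 87.8 kb away in control replicate 1, 1800 kb in control replicate 2 and 183 kb in si-Uc003xsl.1 replicate 1. IL1A, the neighbouring gene of interleukin 1 alpha, had its nearest summit at 140 and 1852 kb in the controls and at 127 and 28.2 kb after si-Uc003xsl.1. IL32, a cytokine that induces other cytokines, had it at 6103 and 6034 kb against 60.5 and 364 kb. LIF, a cytokine of the IL6 family, had it at 4032 and 70.3 kb against 126 and 361 kb. None of these 3 came within 10 kb of a summit.

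Among the 4 genes of TNF signalling and feedback, TRAF1 and TRAF2, which encode adaptors of the TNF receptors, each had a peak in si-Uc003xsl.1 replicate 2. The peak of TRAF2, at 136889980 to 136890212 on chromosome 9, held 15 tags at a fold of 8.81 and a -log10 p of 6.61, percentile 95.4 of the list. Its summit was 3.62 kb downstream of the listed start. In si-Uc003xsl.1 replicate 1 the nearest summit was 18.0 kb outside TRAF2 and inside another gene, FBXW5. It was 4121 kb away in control replicate 1 and 1111 kb in control replicate 2.

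The peak of TRAF1, at 120913402 to 120913646 on chromosome 9, held 13 tags at a fold of 7.18, and its summit was 1.12 kb downstream of the nearest of 3 listed starts. Si-Uc003xsl.1 replicate 1 had a broad peak of 1780 bp and 143 tags 26.2 kb outside TRAF1, which lay inside PHF19, a gene of a Polycomb-associated protein. The nearest summits in control replicates 1 and 2 were 124 kb and 1514 kb away. For TNFAIP3, which encodes the feedback inhibitor A20, the distances were 266 and 6058 kb in the controls and 428 and 165 kb after si-Uc003xsl.1. For TNFAIP2 they were 825 and 805 kb against 70.5 and 64.6 kb.

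Of the 6 survival genes, CFLAR had a peak. It encodes c-FLIP, which blocks caspase-8 at death receptors. The peak at 201166347 to 201166608 on chromosome 2, called in si-Uc003xsl.1 replicate 2, held 11 tags at a fold of 9.16, with its summit 10.2 kb from the nearer gene end and 26.2 kb from the nearest of 4 listed starts. In the other lists the nearest summit lay 99.2 and 1510 kb (controls 1 and 2) and 96.7 kb (si-Uc003xsl.1 replicate 1) away. BIRC2 and BIRC3, which encode the apoptosis inhibitors cIAP1 and cIAP2, are 7.81 kb apart, so they share their surroundings. Their nearest summits were 144 and 114 kb away in control replicate 1 and 268 and 308 kb away in control replicate 2. After si-Uc003xsl.1 they were 143 and 113 kb away in replicate 1 and 22.4 and 61.6 kb in replicate 2. BCL2L1, the gene of BCL-XL, had them at 280 and 242 kb in the controls and 31.7 and 180 kb after si-Uc003xsl.1, and BCL2A1 at 691 and 772 kb against 41.4 and 1161 kb.

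Of the 3 colony-stimulating factor genes, CSF2, which encodes GM-CSF, carried the single member peak of si-Uc003xsl.1 replicate 1. It lay at 132065370 to 132065697 on chromosome 5, was 328 bp long and held 14 tags. The caller's fold was 6.28 and its false discovery rate 28.9%. The summit was 8363 bp upstream of the CSF2 start but 2222 bp from IL3, so IL3 was the nearer gene. The nearest summits to CSF2 in the other lists were 79.0 and 226 kb (controls 1 and 2) and 644 kb (si-Uc003xsl.1 replicate 2) away. CSF2 was the member nearest to the 10 kb limit on its inner side. Just outside it were CXCL10 at 12.2 kb in si-Uc003xsl.1 replicate 1, CSF3 at 12.6 kb in replicate 2 and MMP9 at 12.7 kb in replicate 1. The peak near CXCL10 lay inside CXCL11 and ART3, and that near MMP9 inside SLC12A5. CSF3, the gene of G-CSF, had its other nearest summits at 116, 1679 and 305 kb in control replicates 1 and 2 and si-Uc003xsl.1 replicate 1. CSF1, the gene of M-CSF, had them at 114 and 896 kb in the controls and 33.2 and 54.2 kb after si-Uc003xsl.1.

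The remaining roles had no member peak in any list. The 4 chemokine genes, whose products draw T cells and monocytes, had their nearest summits between 37.8 and 428 kb in control replicate 1 and between 417 and 5096 kb in control replicate 2. After si-Uc003xsl.1 the ranges were 12.2 to 264 kb and 24.6 to 1014 kb. The leukocyte adhesion genes ICAM1 and VCAM1 had theirs at 36.5 and 249 kb in si-Uc003xsl.1 replicate 1 and at 130 and 204 kb in replicate 2. In the controls ICAM1 lay 334 and 3465 kb and VCAM1 129 and 986 kb from a summit. NOS2, which encodes the inducible nitric oxide synthase, had none nearer than 527 and 801 kb in the controls and 241 and 168 kb after si-Uc003xsl.1. For PTGS2, the gene of cyclooxygenase 2, the values were 166 and 1731 kb against 126 and 225 kb, and for SOD2, the mitochondrial superoxide dismutase, 1212 and 6202 kb against 58.1 and 851 kb. PLAU, which encodes the protease urokinase, had its nearest summit 34.5 kb away in si-Uc003xsl.1 replicate 2, inside CAMK2G, and at 340, 3425 and 90.1 kb in the others. MMP9, which encodes a gelatinase of the extracellular matrix, had it at 303 and 640 kb in the controls and 12.7 and 175 kb after si-Uc003xsl.1.

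**Figure D2:**
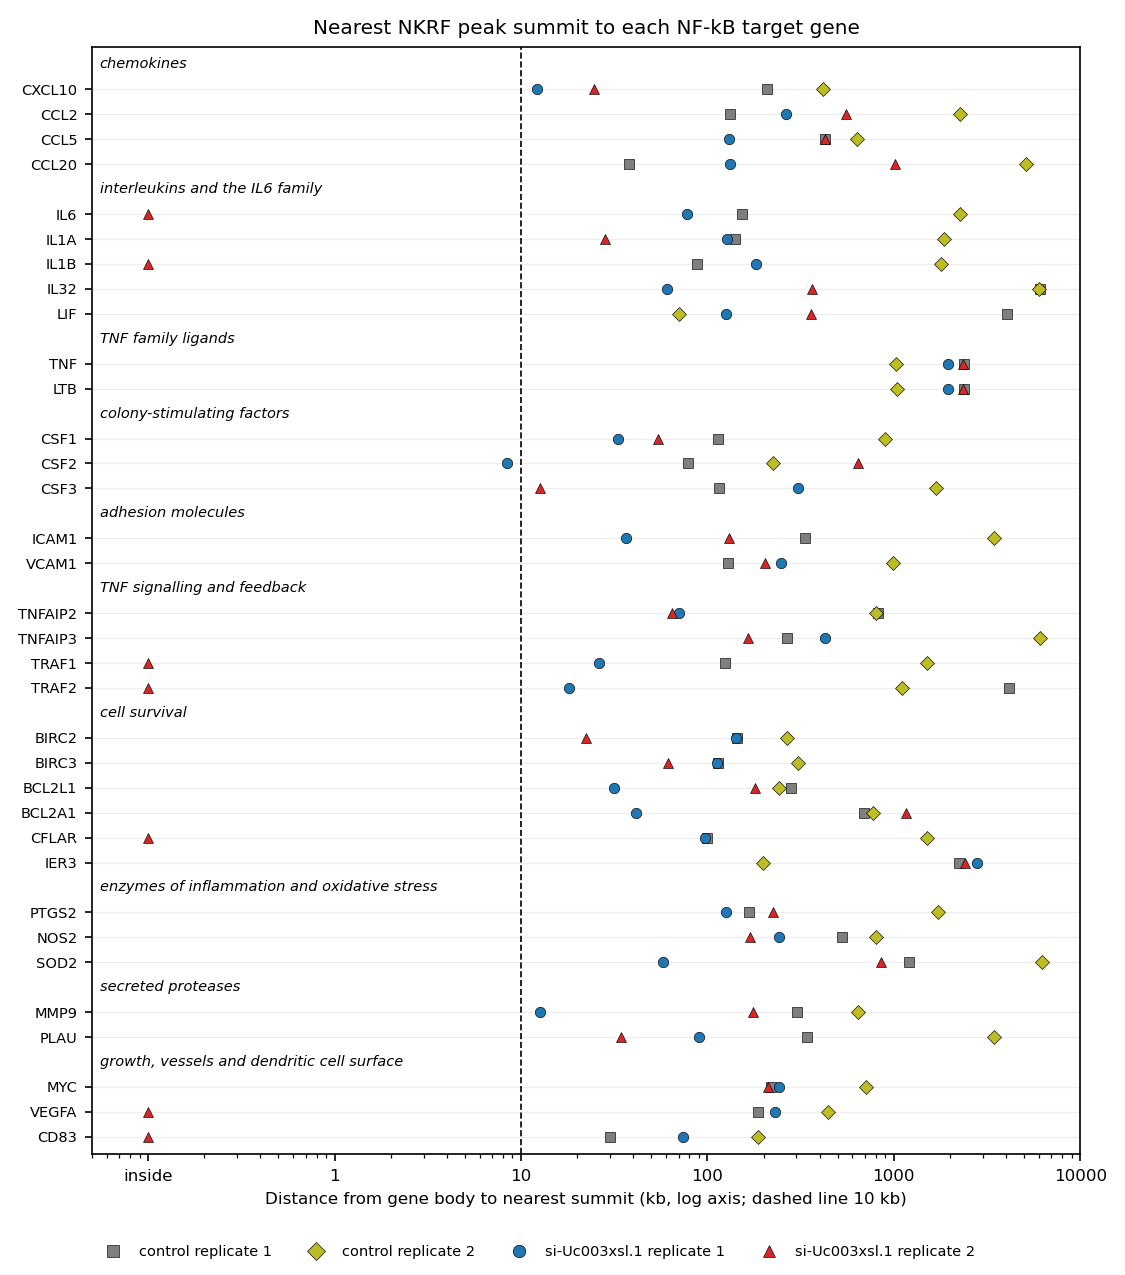
Each row is 1 of the 34 genes, grouped by role, and each symbol is the distance in kb (log axis) from its gene body to the nearest summit in 1 list, with summits inside a gene drawn at the position marked inside. Left of the dashed line at 10 kb stand 7 triangles of si-Uc003xsl.1 replicate 2 and 1 circle of si-Uc003xsl.1 replicate 1, with no symbol of a control list.

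Set against other genes, the share of members was below the background in 3 lists and slightly above it in 1. These shares do not allow for gene length, and the members are short genes. In control replicate 1, 0 of 34 members had a summit in the gene body or within 10 kb (exact Clopper-Pearson 95% interval 0 to 10.3%), and 11.8% of the 20003 other protein-coding genes did. Of other genes of 100 kb or longer, a length with 0 members, 37.5% did. In control replicate 2 it was 0 of 34, with the same interval, beside 2.58%, a value inside it. At that share 0.879 members would be expected. In si-Uc003xsl.1 replicate 1 it was 1 of 34 (2.94%, interval 0.0744 to 15.3) beside 23.1%, which lies above the interval. In si-Uc003xsl.1 replicate 2 it was 7 of 34 (20.6%, interval 8.70 to 37.9) beside 17.1%, a value inside the interval. With summits in the gene body only, the same 7 members stood beside 11.5% of other genes in that list, also inside it. These intervals cover counting error only, and genes that lie close together are not independent.

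Counting only summits within 10 kb of a gene end, on its inner or outer side, gave a like picture. In control replicate 1 there were 0 such members beside 5.00% of other genes, and in control replicate 2 there were 0 beside 1.04%. In si-Uc003xsl.1 replicate 1 there was 1 (2.94%) beside 16.1%, and in replicate 2 there were 5 (14.7%) beside 12.6%. TRAF1 and CFLAR dropped out in si-Uc003xsl.1 replicate 2, since their summits were more than 10 kb from either gene end. Within 1 kb of a listed transcription start, of the 24 members that have one, CD83 and IL6 had a summit in si-Uc003xsl.1 replicate 2 and none had one elsewhere. Other genes had a summit there in 0.247%, 0.107%, 6.66% and 5.36% of cases.

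**Figure D3:**
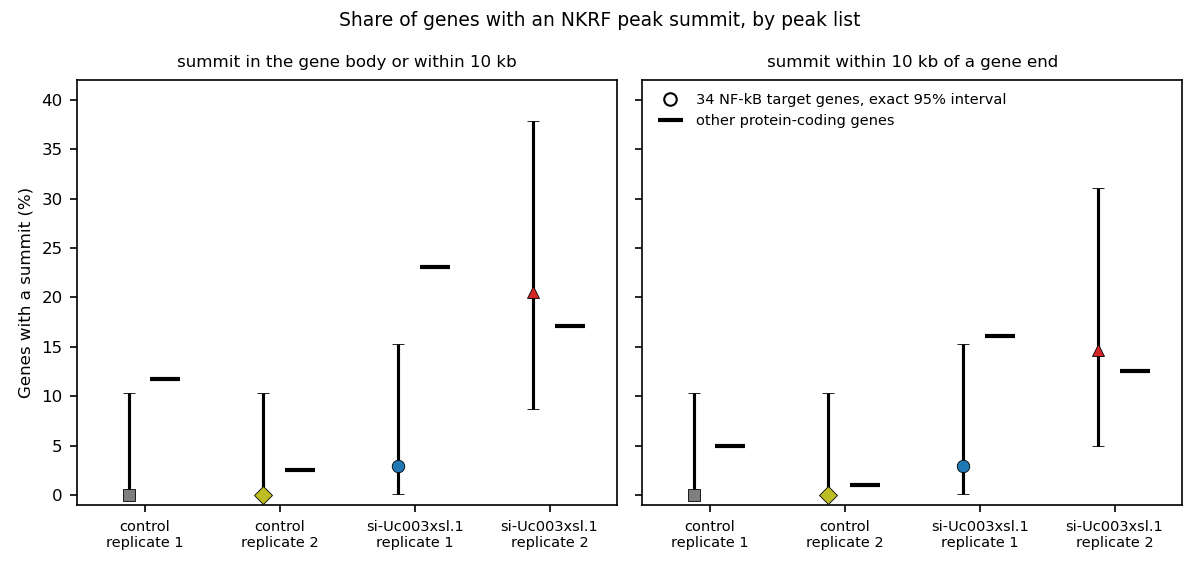
For each list, symbols give the percent of the 34 genes with a summit and bars their exact 95% intervals, and black dashes give the percent of other protein-coding genes. In the left panel, members of si-Uc003xsl.1 replicate 1 stand at 2.94% beside 23.1%, and those of replicate 2 at 20.6% beside 17.1%.

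Control and si-Uc003xsl.1 libraries did not overlap in the share of members with a peak, and the same was true of other genes. The mean share of members was 0% ± 0 (SD, n = 2) in the control libraries. It was 11.8% ± 12.5 (SD, n = 2) with si-Uc003xsl.1, which makes the difference 11.8 percentage points. For other genes the means were 7.19% ± 6.52 and 20.1% ± 4.20 (SD, n = 2 each), a difference of 12.9 points. The difference at the members was smaller than the spread between the 2 si-Uc003xsl.1 libraries, and it was close to that at all other genes. It was 20.6 points without si-Uc003xsl.1 replicate 1 and 2.94 points without replicate 2, so a single library set it. For other genes these values were 9.93 and 15.9 points, so the closeness did not hold with either library left out. No test was made, since the members were chosen with results known. With 2 libraries a group, an exact permutation test could not go below p = 0.333.

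No member was in both si-Uc003xsl.1 lists. With 1 member in replicate 1, at most 1 could have been, so this count says nothing about the members. Of the other protein-coding genes, 1241 were in both, which is 26.9% of those in replicate 1 and 36.2% of those in replicate 2.

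The members are short genes, with a median length of 9.59 kb and a longest of 93.2 kb (SOD2), against a median of 24.2 kb for other genes. A long gene body offers more room for a summit. Among the 17 members under 10 kb, 1 had a peak in si-Uc003xsl.1 replicate 1 and 2 in replicate 2, beside 13.4% and 10.3% of other genes of that length. Among the 11 members of 10 to 30 kb the counts were 0 and 3, beside 18.1% and 14.2%. Among the 6 of 30 to 100 kb they were 0 and 2, beside 24.1% and 18.5%. In control replicate 1, where no member had a peak, other genes of these 3 lengths had one in 2.41%, 4.83% and 12.7%, less than the 37.5% of genes of 100 kb or longer, a length class with 0 members.

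Distances to the nearest summit were spread over several orders of magnitude. The median distance over members was 214 kb in control replicate 1, 1009 kb in control replicate 2, 119 kb in si-Uc003xsl.1 replicate 1 and 167 kb in si-Uc003xsl.1 replicate 2. Over other genes with a peak on their chromosome it was 281, 1319, 73.3 and 132 kb. By their medians alone, members were thus nearer to a summit than other genes in the control lists and farther in the si-Uc003xsl.1 lists. The lower quartile of the members was 125 and 493 kb in control replicates 1 and 2, beside 76.4 and 471 kb for other genes. With si-Uc003xsl.1 it was 45.6 and 22.9 kb in replicates 1 and 2, beside 13.3 and 30.6 kb. Only in si-Uc003xsl.1 replicate 1 did the lower quartile go the same way as the median. These differences were not tested.

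The 8 peaks at members in si-Uc003xsl.1 replicate 2 fell into a larger and a smaller kind. The 3 at VEGFA and CD83 were 500 bp or longer, with 29 to 71 tags, and the other 5 were 233 to 323 bp long with 8 to 15 tags. These 5 were not small for their list, whose medians over all peaks were 203 bp and 8 tags. The median of the 8, 14 tags and 292 bp, stood beside 9 tags and 222 bp for the 3183 peaks at other genes of the list. Of those, 14.5% were 500 bp or longer. False discovery rates ran from 10.6% at TRAF1 to 25% at the longer VEGFA peak, so none of the 8 reached 5%. The median rate over all peaks of that list was also above 5%, between those of CD83 (10.7%) and IL6 (11.8%). Among the 8, the highest rates went with the highest -log10 p, 10.8 at VEGFA and 6.61 at TRAF2 (21.4%), against 4.65 at TRAF1. A higher rate here thus did not mark a peak that was weaker by p. In si-Uc003xsl.1 replicate 1 the peak near CSF2, with 14 tags and 328 bp, stood beside medians of 9 tags and 192 bp. Its false discovery rate of 28.9% stood beside a median of 30.8% over all peaks of that list. Tag counts were not scaled between libraries of different depth.

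**Figure D4:**
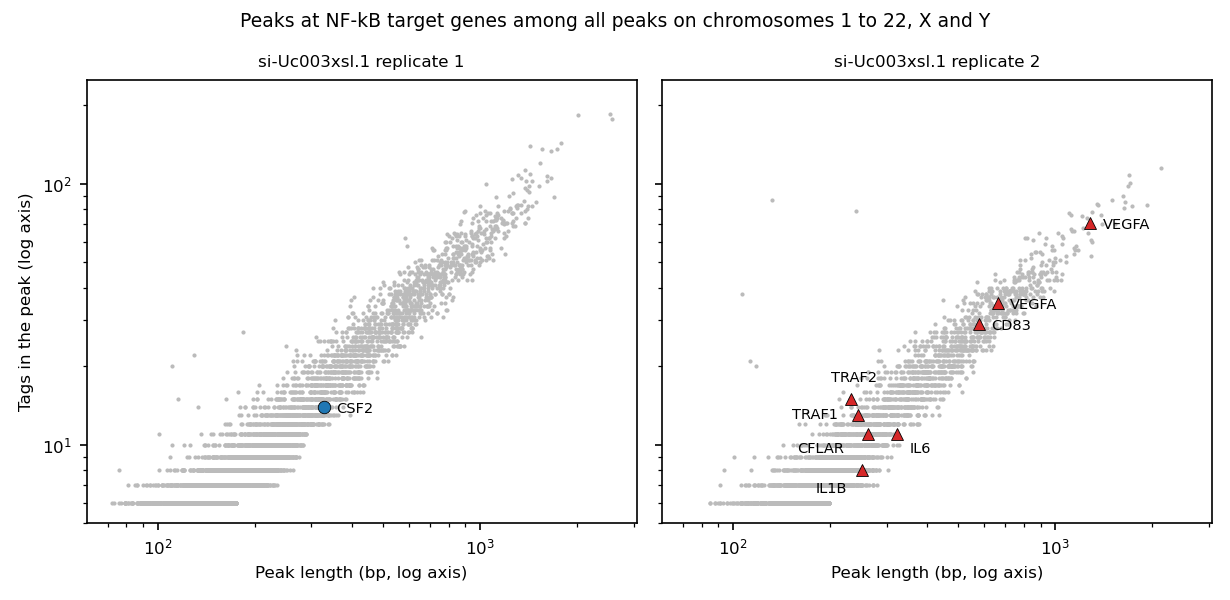
Grey dots are all peaks of the 2 si-Uc003xsl.1 lists by length in bp and tags (both log axes), and the coloured symbols are the peaks at NF-kB target genes. In si-Uc003xsl.1 replicate 2, the 2 peaks of VEGFA and that of CD83, with 29 to 71 tags, lie in the upper part of the cloud. The 5 others of that list lie lower, with 8 to 15 tags, at or above its median of 8 tags.

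TNF, the founding ligand of its family, LTB, which encodes lymphotoxin beta, and IER3, a survival gene induced early by stress, lay in a stretch of chromosome 6 without any summit in the 3 lists from MACS 1.4.2. This stretch was described after its values were seen. It ran from 28504276 to 33532744 in all 3 lists together, 5.03 Mb with 171 protein-coding genes, and spans the major histocompatibility complex. In each of the 3 lists the stretch around TNF was the interval between neighbouring summits with the most protein-coding genes, with 177 in control replicate 1 ahead of 167 in the next, 193 in si-Uc003xsl.1 replicate 1 ahead of 114, and 181 in si-Uc003xsl.1 replicate 2 ahead of 111. Control replicate 2 had 2 summits inside it, the nearer to IER3 200 kb away. TNF lay 2368, 1954 and 2348 kb from the nearest summit in those 3 lists and 1032 kb from it in control replicate 2, and LTB, 2.22 kb from TNF, lay at nearly the same distances. The 3 lists hold 6, 8 and 4 peaks on alternate scaffolds, which carry second copies of some regions in this genome build, and control replicate 2 holds 0. The part of these scaffolds in the empty stretch was not tested. Without the genes of the stretch, the counts stayed at 0, 0, 1 and 7 of 31 members, with 11.9%, 2.60%, 23.3% and 17.3% of other genes.

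**Figure D5:**
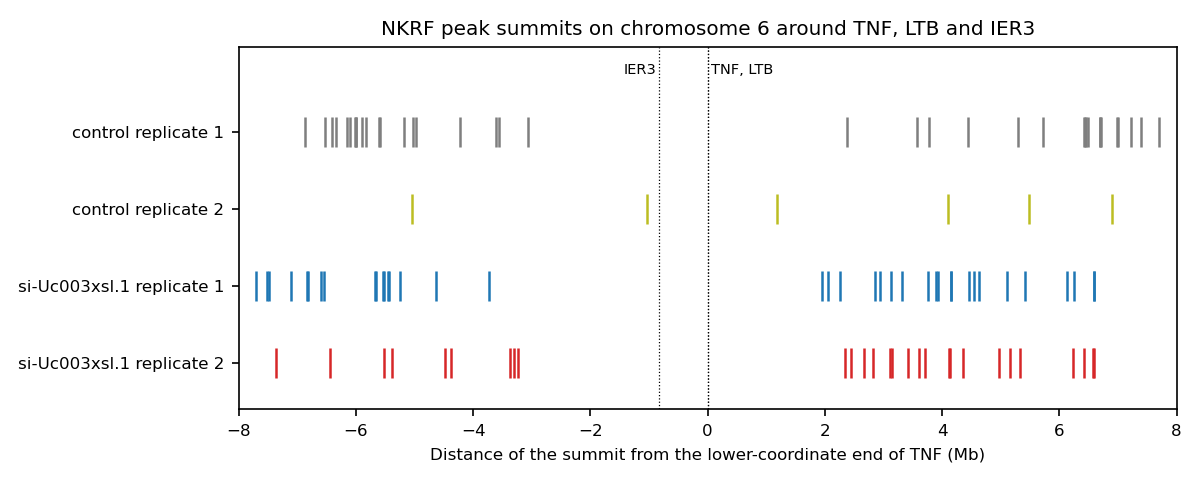
Each tick is a summit on chromosome 6, by its distance in Mb from the lower-coordinate end of TNF, with 1 row per list and dotted lines at IER3, TNF and LTB. The 3 lists from MACS 1.4.2 are empty over 5.03 Mb around these genes, while control replicate 2 has 2 ticks there.

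The NF-kB pathway itself and the receptors of the encoded proteins were counted in the same way. Of 25 pathway genes, 3 had a summit within 10 kb or inside in control replicate 1, 0 in control replicate 2 and 6 in each si-Uc003xsl.1 list. After si-Uc003xsl.1 these were NFKB1, NFKBIB, IKBKE, TBK1, MAP3K14 and RIPK1 in replicate 1 and NFKBIE, BCL3, IKBKB, TAB1, RIPK1 and CYLD in replicate 2. RIPK1, a kinase of TNF receptor signalling, was in control replicate 1 and both si-Uc003xsl.1 lists. For the 22 receptor genes, these counts stood at 2, 2, 6 and 7. IL6R, the receptor of IL6, and the integrin genes ITGAL and ITGB2, whose products together form a receptor of ICAM1, were in both si-Uc003xsl.1 lists. Of other protein-coding genes, 6.20% were in both. After si-Uc003xsl.1 the shares of 24.0% in both lists for the pathway and of 27.3% and 31.8% for the receptors stood beside 23.1% and 17.1% of other genes. In the controls the shares were 12% and 0% for the pathway and 9.09% in both lists for the receptors, beside 11.8% and 2.58%. Both lists were thus, in si-Uc003xsl.1 replicate 1, at or above the background, where the 34 target genes stood at 2.94%. Differences between the lists were not tested, and gene length was not matched.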

How the data were processed

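NKRF-immunoprecipitated and input DNA of MDA-MB-231-P3 cells were sequenced, and groups and replicate numbers came from the sample titles. The submitters' processing notes name Bowtie2, CASAVA 1.4 and the genome GRCh38.p11. Peaks were called per library against 1 input, without pooling, at a p-value threshold of 0.0001 (MACS 1.4.2) or, for control replicate 2, a q-value threshold of 0.05 (MACS 2.1.1.20160309), per the file headers. The MACS 1.4.2 lists give tag counts per peak, deposited unscaled. They give a score proportional to the negative log10 of p, per the file headers. The fold over the input library is a ratio from the authors' caller. The false discovery rate is a percent from the authors' caller. For control replicate 2 the deposited depth is the pileup signal at the summit. That list gives -log10 of p and q, per the file headers. Peak scores are the authors' and only describe peaks within a list.

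Summits were placed on GRCh38 and compared with RefSeq genes (GRCh38.p14) on chromosomes 1 to 22, X and Y. Of 20056 protein-coding genes, 19 unplaced or mitochondrial ones were left out. Patch releases keep the coordinates of these chromosomes. The distance code was checked on simulated peaks at known positions. Python 3.11.15 with pandas 2.3.3 and scipy 1.17.1 was used. Filtered tags ranged from 8250475 to 19335431. In MACS 1.4.2 lists the summit column was read as an offset counted from 1 at the peak start. The members and gene lists were chosen with earlier results of these data known, so no list test was made. All members were described, those with a peak in full. The input libraries were not analysed here. Alternatives were other windows, gene ends only, peak intervals in place of summits, stricter thresholds, equal list sizes and leaving out each replicate. The stretch around TNF and the length classes were added after the data were seen.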

Additional observations from a re-analysis of the deposited data

How the results depend on the processing

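With 50 kb around each gene, 2, 0, 9 and 12 members had a summit in control lists 1 and 2 and then si-Uc003xsl.1 lists 1 and 2, beside 19.9%, 4.85%, 42.1% and 31.3% of other genes. Members in both si-Uc003xsl.1 lists then numbered 3 (CXCL10, TRAF1 and TRAF2), which is 8.82% beside 17.1% of other genes. The difference in mean share was then 27.9 points beside 24.3 for other genes. In si-Uc003xsl.1 replicate 1 the count was 0 with 1 kb, with the gene body only, with a -log10 p of at least 6 and with equal lists of 902 peaks, beside 17.8%, 15.7%, 2.69% and 4.36% of other genes. In si-Uc003xsl.1 replicate 2 it was 2 (TRAF2 and VEGFA) with a -log10 p of at least 6 and 4 (those and CFLAR and IL1B) with equal lists, beside 2.09% and 4.01% of other genes. Leaving out 1 library at a time gave a difference of 2.94 to 20.6 points, the lowest with si-Uc003xsl.1 replicate 2 left out and the highest with its replicate 1 left out. For other genes the difference was 15.9 points without si-Uc003xsl.1 replicate 2 and 9.93 points without its replicate 1. The difference also fell to 2.94 points with a -log10 p of at least 6 and to 5.88 with equal lists, beside 0.992 and 1.90 for other genes. The p cutoff was applied to scores of different MACS versions. It took other genes from 11.8% to 0.560% in control replicate 1, and from 2.58% to 2.24% in control replicate 2. The 7 members of si-Uc003xsl.1 replicate 2 (20.6%) were kept with 1 kb and with the gene body only, while other genes fell to 13.0% and 11.5%, still inside the members' interval of 8.70 to 37.9%. No paired analysis was possible because the counts come from no test to which a replicate term could be added. The labels do not say that equal replicate numbers were paired. The within-number differences were 2.94 points for replicate 1 and 20.6 for replicate 2, the latter between lists of different MACS versions. Other genes went from 11.8% in the control to 23.1% with si-Uc003xsl.1 in replicate 1, and from 2.58% to 17.1% in replicate 2. A peak list does not show signal under the caller's threshold, so at these depths a missing peak means not detected.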

Other observations

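In si-Uc003xsl.1 replicate 1, the 2 peaks with the most tags among those 10 to 50 kb from a member lay in other genes. The peak in PHF19, 26.2 kb from TRAF1, held 143 tags with a -log10 p of 9.89, percentile 99.7 of its list. The peak in FBXW5, 18.0 kb from TRAF2, held 76 tags over 1136 bp. Its -log10 p of 4.46 stood at percentile 53.0. These tag counts were not scaled for depth, so they cannot be set against those of si-Uc003xsl.1 replicate 2. In si-Uc003xsl.1 replicate 2 a smaller peak in CAMK2G, 34.5 kb from PLAU, held 32 tags over 662 bp.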
